A study of Homo sapiens with 3 samples.

Results

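The ZNF genes are the largest named set of zinc finger genes in the human genome, and 227 of them were examined here in Hep3B, a hepatocellular carcinoma cell line of human origin. They were taken as every gene with a symbol of ZNF and a number, with at most 1 letter after it, and a mean of at least 3 FPKM over the 3 libraries of the study. FPKM is the number of sequenced fragments divided by transcript length and by library size. Of 507 such symbols in the table of 19869 genes, 227 passed this minimum. The other 280 did not, and 56 of these were listed at 0 in all 3 libraries. The mean of the 3 libraries chose the genes, so a gene that is high in 1 library alone can pass. Under 3 FPKM in the control were 23 of the 227, and 18 were under 3 FPKM in both the control and the siTERT-labelled library. Just inside the minimum were ZNF77 at a mean of 3.01 FPKM, ZNF383 at 3.04 FPKM and ZNF426 at 3.05 FPKM. Just outside it were ZNF845 at a mean just below 3 FPKM, ZNF566 at 2.97 FPKM and ZNF839 at 2.96 FPKM.

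A ZNF protein reads DNA through a row of C2H2 zinc fingers, short folds in which a pair of cysteines and a pair of histidines hold a zinc ion. Many of these proteins carry a KRAB box at their start, which binds the corepressor TRIM28 and brings the histone methyltransferase SETDB1 to the bound site, often a transposable element. Others carry a SCAN domain, through which zinc finger proteins pair with each other, or neither domain. Many of the genes lie in clusters of related genes, and chromosome 19 holds more of them than any other chromosome.

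The study sequenced RNA from 3 groups, with 1 library for each. The first came from cells transfected with a pcDNA3.1 plasmid carrying HKR3, an older name of the zinc finger gene ZBTB48. The second came from cells given a small interfering RNA that targets TERT, the catalytic subunit of telomerase. The control is titled NT-Empty, and its treatment label names the transfection reagent Fugene alone. All were grown in medium with 10% fetal bovine serum. No group had a replicate, so every value below is a single measurement, no test between groups was possible, and a difference of at least 2-fold on the log2(FPKM + 1) scale was used as a rule of size. ZBTB48 was at 2842 FPKM in the HKR3 library, 4.89 FPKM in the siTERT-labelled library and 4.91 FPKM in the control. TERT was at 4.25, 5.37 and 4.69 FPKM in the same libraries, so it was not lower in the siTERT-labelled library. All 9 hepatocyte and hepatoma markers examined were expressed, with AFP at 2831, 3855 and 4055 FPKM. Of 8 listed markers of immune, stromal and endothelial cells, 4 were at 0 in all libraries and 6 had a mean under 1 FPKM. The exceptions were CD68 at 29.4, 44.1 and 32.7 FPKM and CD14 at 3.13, 4.82 and 6.2 FPKM in the same libraries. The sources used here give no fragment number per library. From the FPKM worth of 1 fragment in weakly expressed genes it was estimated at 1.21e+07 for the HKR3 library, 1.18e+07 for the siTERT-labelled library and 1.04e+07 for the control. At those sizes the median ZNF gene rests on about 383, 262 and 222 fragments in the same libraries, an estimate that takes the transcript with the longest coding sequence as the whole gene.

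The repeated fingers are what the ZNF genes share at the level of sequence, and they are shown for 4 genes with KRAB boxes that are described below. Each line gives 84 bases of coding sequence from the transcripts of GENCODE release 29, 5′ to 3′. They cover the first finger of each gene that is spaced at 28 codons and followed by the commonest linker. Capitals mark the codons of the 2 cysteines and the 2 histidines.
ZNF92: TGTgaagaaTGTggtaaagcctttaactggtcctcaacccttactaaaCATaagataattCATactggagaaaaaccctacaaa
ZNF675: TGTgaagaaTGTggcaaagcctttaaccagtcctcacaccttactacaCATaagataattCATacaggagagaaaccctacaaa
ZNF253: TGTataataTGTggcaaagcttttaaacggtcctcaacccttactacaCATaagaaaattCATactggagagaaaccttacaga
ZNF91: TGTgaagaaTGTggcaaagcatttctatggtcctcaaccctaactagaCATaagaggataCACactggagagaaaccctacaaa
Any 2 of these lines had between 68 and 76 of the 84 bases in common, with ZNF92 and ZNF675 at 76 and ZNF253 and ZNF91 at 68. Over the whole transcript, the share of 31-base units also found in another gene was 13.9% for ZNF92, 17.6% for ZNF675, 24.0% for ZNF253 and 19.9% for ZNF91. The median of this share was 7.60% over the 227 genes, and 129 of them were under 10%. It was at least 50% in 12 genes, whose values are uncertain because fragments of such stretches could be given to another gene.

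The start regions of 7 genes are shown because the results name the gene or because the region holds a motif that was searched for. Sequences are from the RefSeq promoter table on GRCh38.p14, 250 bases before to 50 bases after the start of the gene, which held 195 of the 227 genes. Capitals mark matches on either strand to TTAGGG, the telomere repeat that ZBTB48 is known to bind, to TGANTCA, the AP-1 site or to the 11-base site of ZNF143, whose letters are the second run of capitals in the line of ZNF317. No match overlapped another.
ZNF281, chr1:200409987-200410286, minus strand: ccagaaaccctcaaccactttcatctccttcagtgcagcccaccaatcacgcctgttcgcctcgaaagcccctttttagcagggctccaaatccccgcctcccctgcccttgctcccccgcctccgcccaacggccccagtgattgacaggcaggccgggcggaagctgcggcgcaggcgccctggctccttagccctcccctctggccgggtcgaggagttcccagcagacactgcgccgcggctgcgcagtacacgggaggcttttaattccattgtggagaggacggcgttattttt
ZNF92, chr7:65373605-65373904, plus strand: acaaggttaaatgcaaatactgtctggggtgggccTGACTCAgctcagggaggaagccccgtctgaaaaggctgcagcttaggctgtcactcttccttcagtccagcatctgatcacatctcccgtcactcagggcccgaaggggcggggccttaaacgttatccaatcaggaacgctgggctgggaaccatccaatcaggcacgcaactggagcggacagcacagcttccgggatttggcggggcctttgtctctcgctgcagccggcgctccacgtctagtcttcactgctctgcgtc
ZNF317, chr19:9140147-9140446, plus strand: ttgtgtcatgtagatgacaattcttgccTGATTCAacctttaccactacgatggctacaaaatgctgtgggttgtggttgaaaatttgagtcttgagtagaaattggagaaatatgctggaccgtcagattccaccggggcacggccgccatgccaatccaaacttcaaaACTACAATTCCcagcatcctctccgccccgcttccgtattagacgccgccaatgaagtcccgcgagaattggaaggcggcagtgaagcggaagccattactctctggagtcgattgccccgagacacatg
ZNF436, chr1:23369787-23370086, minus strand: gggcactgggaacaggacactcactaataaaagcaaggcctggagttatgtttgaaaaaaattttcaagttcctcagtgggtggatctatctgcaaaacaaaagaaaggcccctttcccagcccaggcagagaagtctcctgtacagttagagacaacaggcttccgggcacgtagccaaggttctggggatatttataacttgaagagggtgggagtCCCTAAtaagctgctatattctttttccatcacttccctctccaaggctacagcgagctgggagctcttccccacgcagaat
ZNF595, chr4:53071-53370, plus strand: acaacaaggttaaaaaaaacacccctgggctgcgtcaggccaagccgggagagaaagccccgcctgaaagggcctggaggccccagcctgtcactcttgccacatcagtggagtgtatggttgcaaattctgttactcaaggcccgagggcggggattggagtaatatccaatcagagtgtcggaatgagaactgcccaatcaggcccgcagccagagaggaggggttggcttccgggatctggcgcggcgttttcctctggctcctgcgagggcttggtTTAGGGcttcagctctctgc
ZNF134, chr19:57613992-57614291, plus strand: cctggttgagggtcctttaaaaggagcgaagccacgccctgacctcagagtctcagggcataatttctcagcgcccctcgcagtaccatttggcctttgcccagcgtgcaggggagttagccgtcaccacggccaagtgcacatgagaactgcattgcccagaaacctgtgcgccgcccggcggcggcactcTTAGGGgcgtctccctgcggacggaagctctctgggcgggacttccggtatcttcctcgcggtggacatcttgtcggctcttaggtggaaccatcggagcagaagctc
ZNF718, chr4:127871-128170, plus strand: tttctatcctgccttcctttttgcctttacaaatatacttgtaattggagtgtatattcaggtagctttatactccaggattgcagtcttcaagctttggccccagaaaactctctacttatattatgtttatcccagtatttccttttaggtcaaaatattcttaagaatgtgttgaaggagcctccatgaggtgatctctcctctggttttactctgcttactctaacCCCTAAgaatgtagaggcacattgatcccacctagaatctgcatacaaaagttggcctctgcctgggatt
ZNF281, with the largest difference in the HKR3 library, held none of the 3 motifs in this window, and ZNF92 held TGACTCA. ZNF317 held both TGATTCA and the ZNF143 site. ZNF436, ZNF595, ZNF134 and ZNF718 each held 1 copy of the telomere repeat, in ZNF436 and ZNF718 on the opposite strand. ZNF718 had 0 CG pairs and ZNF436 had 4, against 12 to 21 in the other 5 sequences shown.

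Across the 227 genes, levels were modest in every library. The median was 8.20 FPKM in the HKR3 library, 6.07 FPKM in the siTERT-labelled library and 6.03 FPKM in the control, and the means of 164 genes were below 10 FPKM. Their summed FPKM was 3069 in the HKR3 library, 2325 in the siTERT-labelled library and 2273 in the control. These sums were 0.573%, 0.401% and 0.381% of the FPKM of all genes in the same libraries. The HKR3 library was the highest of the 3 for 170 genes, or 74.9%, the siTERT-labelled library for 29 and the control for 28. Among the other genes that averaged 3 FPKM or more, the HKR3 library was the highest for 41.4%.

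The 8 most abundant genes had ZNF444 and ZNF787 at the top. ZNF444, a SCAN domain gene, was at 117 FPKM in the HKR3 library, 139 FPKM in the siTERT-labelled library and 146 FPKM in the control. ZNF787 was at 131, 111 and 108 FPKM in the same libraries. Several others in this group are no classical DNA-binding repressors. ZNF207, also known as BuGZ, acts at the mitotic spindle and kinetochore and was at 121 FPKM with HKR3, 75.5 FPKM in the siTERT-labelled library and 80.2 FPKM in the control. ZNF593, whose yeast relative acts in ribosome assembly, was at 78.3, 77.9 and 66.7 FPKM in the same libraries, but 95.7% of its sequence is shared with another gene. ZNF146, ZNF768, ZNF706 and ZNF664 had means between 45.2 and 53.9 FPKM. Among these 8, differences from the control lay between -0.31 and 0.59 in log2 in the HKR3 library, so none was at least 2-fold.

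The comparison of the HKR3 library with the control asked how ZNF genes differed where another zinc finger gene was overexpressed. Most ZNF genes were higher in the HKR3 library, by less than 2-fold. The median log2 difference was 0.45 over the 227 genes, with quartiles of 0.10 and 0.79, and 179 were above 0. Over the 9182 other genes that averaged 3 FPKM or more the median was -0.05, with quartiles of -0.38 and 0.33, and 4292 were above 0. At least 2-fold higher were 30 of the 227 ZNF genes, or 13.2%, where 5.52% of all 10974 genes averaging 1 FPKM or more and 5.15% of the other genes at 3 FPKM were that much higher. At least 2-fold lower was 1 ZNF gene, or 0.441%, where the shares were 2.52% of all genes and 2.71% of the other genes. At 1.5-fold, 90 ZNF genes were higher and 6 lower, or 39.6% and 2.64%, against 14.1% and 13.2% of the other genes.

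The deposited FPKM sum to 535516 in the HKR3 library, 579410 in the siTERT-labelled library and 596536 in the control. Scaling to the same sum adds 0.16 to a log2 ratio of FPKM of HKR3 over control, and less than that on the log2(FPKM + 1) scale of weakly expressed genes. It took the median of the ZNF genes to 0.60 and that of the other genes to 0.10, with 48 ZNF genes, or 21.1%, and 7.25% of the other genes at least 2-fold higher. The gap between the medians was 0.50 as deposited, after this scaling and after scaling to the same median. Each scaling moves all genes of a library nearly alike, so this gap could hardly change and nothing is read from its staying the same. Because a mean that includes the HKR3 library lets in genes that are high there, the genes were also chosen by the siTERT-labelled library alone, which has no part in this comparison. Of 202 ZNF genes at 3 FPKM or more in it, 21, or 10.4%, were at least 2-fold higher and 1 was lower, with a median of 0.40. Of 9085 other genes chosen alike, 4.48% were higher and the median was -0.06.

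**Figure D1:**
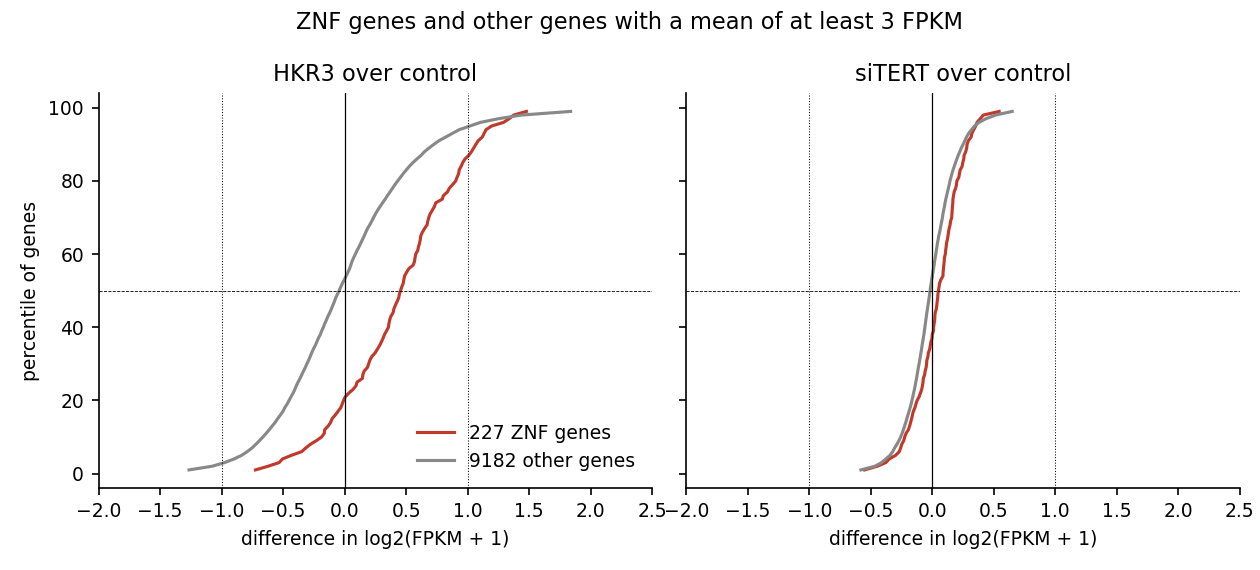
Percentile of genes (vertical axis) against the difference in log2(FPKM + 1) from the control (horizontal axis) for 227 ZNF genes and 9182 other genes, with dotted lines at 2-fold. In the HKR3 library the curve of the ZNF genes lies to the right of the other genes over most of its length, with medians of 0.45 and -0.05, while in the siTERT-labelled library the medians are 0.05 and -0.02.

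ZNF genes were set beside other genes of the same expression level, since differences in the HKR3 library also changed with level. Among genes with a mean of 3 to 5 FPKM, the median log2 difference was 0.42 for 61 ZNF genes and 0.06 for 1030 other genes. Between 5 and 10 FPKM it was 0.48 for 103 ZNF genes and 0.09 for 1866 other genes. Between 10 and 20 FPKM it was 0.47 for 43 ZNF genes and 0.02 for 2168 other genes. Above 40 FPKM it was 0.34 for 10 ZNF genes and -0.21 for 2384 other genes. Between 20 and 40 FPKM it was 0.40 for 10 ZNF genes and -0.04 for 1734 other genes, so the median of the ZNF genes was the higher in all 5 ranges. The share at least 2-fold higher was 18.0% in ZNF genes against 7.09% in other genes at 3 to 5 FPKM. The mean that sets these ranges includes the HKR3 library. Among the ZNF genes counted at 3 to 5 FPKM were ZNF16, ZNF654, ZNF319, ZNF555, ZNF436 and ZNF595, all under 3 FPKM in the control. They passed the minimum through the HKR3 library, so nothing is read from the share in this range. The share at least 2-fold higher was 9.71% against 7.18% at 5 to 10 FPKM and 18.6% against 5.72% at 10 to 20 FPKM. Of the 10 ZNF genes at 20 to 40 FPKM, 1 was that much higher and 1 lower, or 10.0% each, against 4.67% and 2.36% of other genes. Above 40 FPKM, 0 of 10 ZNF genes and 2.56% of other genes were at least 2-fold higher. A count of 0 among 10 genes is near that share, so nothing is read from it.

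**Figure D2:**
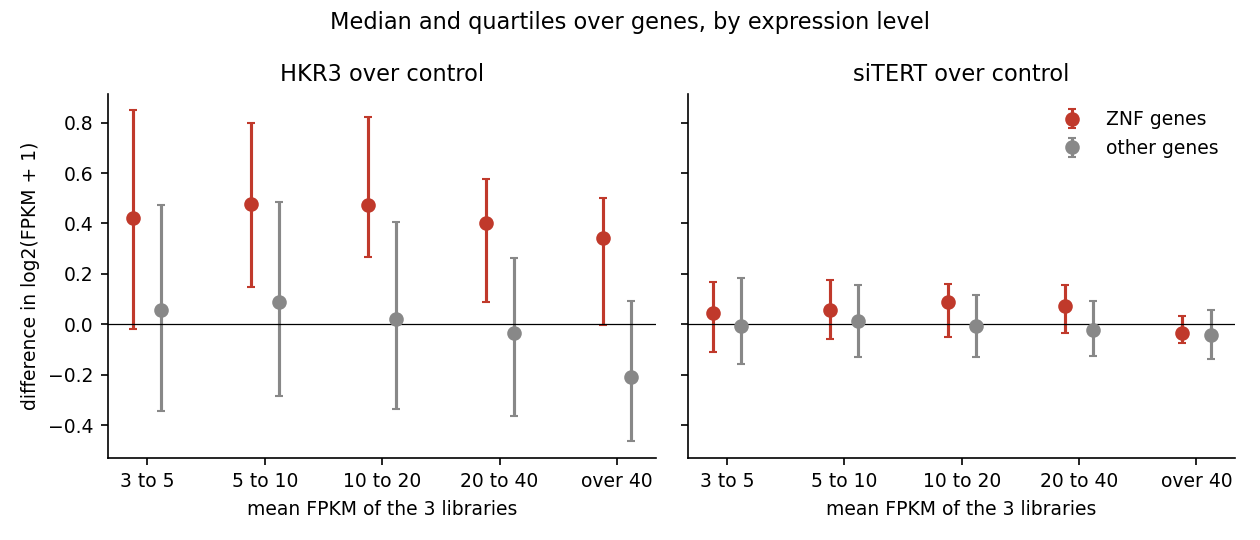
Median (point) and quartiles (bars) over genes of the difference in log2(FPKM + 1) from the control, by range of mean FPKM, for ZNF genes and other genes. In the HKR3 library the ZNF medians lie between 0.34 and 0.48 in all 5 ranges and those of the other genes between -0.21 and 0.09, while in the siTERT-labelled library both lie between -0.04 and 0.09.

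The largest differences were those of regulators with few common features. ZNF281, a zinc finger factor that binds GC-rich sites and is known from pluripotent cells, was at 63.9 FPKM in the HKR3 library, 20.8 FPKM in the siTERT-labelled library and 18.0 FPKM in the control. Its log2 difference of 1.77 between the HKR3 library and the control was the highest of the 227. ZNF148, a close relative of ZNF281, was at 11.3, 8.45 and 7.77 FPKM in the same libraries, a log2 difference of 0.49. ZNF92, a KRAB gene of a cluster on chromosome 7, was at 22.9 FPKM in the HKR3 library, 9.24 FPKM in the siTERT-labelled library and 6.81 FPKM in the control, a difference of 1.61. In all 3 genes the HKR3 library was the highest, by far in ZNF281 and ZNF92 and by less in ZNF148.

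ZNF710 was at 12.4 FPKM in the HKR3 library, 4.42 FPKM in the siTERT-labelled library and 4.02 FPKM in the control. ZNF746, also called PARIS, a KRAB protein that represses the gene for the mitochondrial regulator PGC-1 alpha, was at 14.7, 5.56 and 5.24 FPKM in the same libraries. ZNF367 was at 17.7, 7.21 and 6.73 FPKM, and ZNF675 at 17.9, 8.63 and 7.25 FPKM. In these 4 the 2 libraries without HKR3 lay close together, and log2 differences of HKR3 over control were 1.42, 1.34, 1.28 and 1.20. The other 6 of the 12 highest genes were ZNF16, ZNF654, ZNF319, ZNF555, ZNF436 and ZNF595, all under 3 FPKM in the control. ZNF16 was at 6.63 FPKM in the HKR3 library, 2.41 FPKM in the siTERT-labelled library and 1.70 FPKM in the control. ZNF319 was at 6.97, 1.89 and 2.10 FPKM in the same libraries. These 6 reached the mean of 3 FPKM through the HKR3 library, which is part of how they were chosen.

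Genes of known function were also among those at least 2-fold higher. ZNF143, an activator of small nuclear RNA genes that binds many promoters, was at 17.9 FPKM in the HKR3 library, 8.34 FPKM in the siTERT-labelled library and 7.46 FPKM in the control, a log2 difference of 1.16. ZNF274, which has both a KRAB box and a SCAN domain and is known to bring SETDB1 to the 3′ ends of other ZNF genes, was at 28.5, 14.8 and 13.2 FPKM in the same libraries, a difference of 1.06. ZNF91 and ZNF93, which repress the SVA and LINE-1 retrotransposons, stayed under 2-fold. ZNF91 was at 19.4 FPKM in the HKR3 library, 10.8 FPKM in the siTERT-labelled library and 9.70 FPKM in the control, a difference of 0.93. ZNF93 was at 10.7, 5.98 and 6.62 FPKM in the same libraries, a difference of 0.62.

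ZNF410, an activator of the chromatin remodeller gene CHD4, was at 21.1 FPKM in the HKR3 library, 12.6 FPKM in the siTERT-labelled library and 12.7 FPKM in the control, but 88.9% of its sequence is shared with another gene. CHD4 itself was at 31.2, 35.3 and 34.9 FPKM in the same libraries. ZNF473, which takes part in the 3′ end processing of histone messenger RNAs, was at 13.4, 6.86 and 6.56 FPKM, a difference of 0.93. ZNF598, the ubiquitin ligase of collided ribosomes, was at 42.1, 28.9 and 27.8 FPKM, a difference of 0.58. ZNF217, an oncogene of breast cancer, was at 21.7, 20.5 and 21.0 FPKM, a difference of 0.05. Size therefore varied widely among ZNF genes, from ZNF281 at 1.77 to genes within a few percent of the control.

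**Figure D3:**
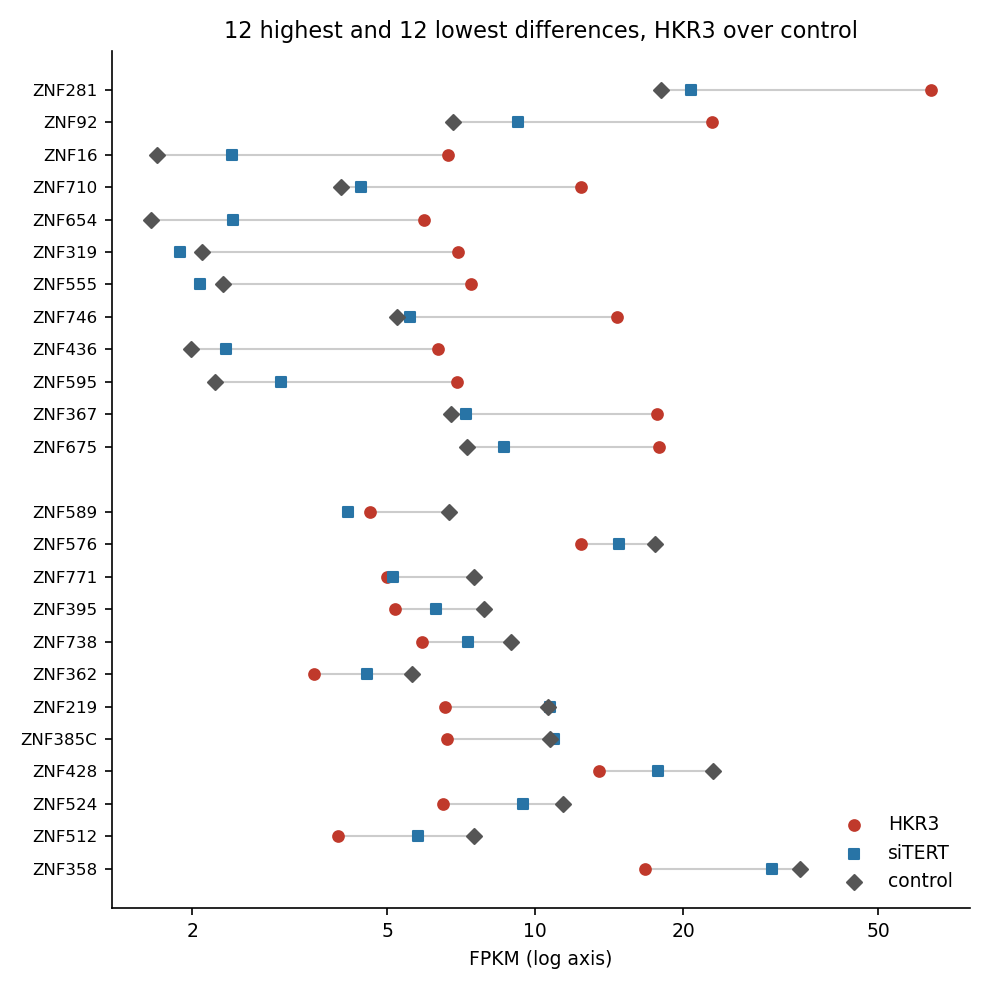
FPKM on a log axis of the 12 ZNF genes with the highest and the 12 with the lowest difference between the HKR3 library and the control, with 1 point for each library and a line joining the HKR3 library and the control. All 12 upper genes are highest in the HKR3 library, and 11 of the 12 lower genes are lowest there, the exception being ZNF589, which was lowest in the siTERT-labelled library.

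The ZNF genes at the lower end differed less in size than those at the upper end. ZNF358 was the 1 gene at least 2-fold lower, at 16.7 FPKM in the HKR3 library, 30.4 FPKM in the siTERT-labelled library and 34.6 FPKM in the control, a log2 difference of -1.01. After scaling to the same sum no ZNF gene was 2-fold lower. ZNF512 was at 3.96, 5.76 and 7.51 FPKM in the HKR3 library, the siTERT-labelled library and the control. ZNF524 was at 6.50, 9.45 and 11.4 FPKM in the same libraries, and ZNF428 at 13.5, 17.8 and 23.0 FPKM. In each of these 4 the siTERT-labelled library lay between the other 2. ZNF385C was at 6.61, 10.9 and 10.7 FPKM, and ZNF219 at 6.56, 10.7 and 10.6 FPKM, so that the HKR3 library alone was low. ZNF362, ZNF738, ZNF395, ZNF771, ZNF576 and ZNF589 had log2 differences between -0.54 and -0.45. All 12 stayed below 0 under both scalings, which was fixed in advance, since scaling adds at most 0.16 to a log2 ratio of HKR3 over control.

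Proteins translated from the GENCODE transcripts divided the genes by domain. A KRAB box was called in 118 genes, a SCAN domain without KRAB in 9, and neither in 100. The calls rest on a short core of fixed residues, so a box or domain that has diverged from it is missed. ZNF202 and ZNF213, in the SCAN group, had 3 fixed KRAB residues changed where at most 2 were allowed. The groups below are those of this rule. The number of C2H2 fingers had a median of 9 and reached 31, and 18 genes had 2 or fewer. For the 118 KRAB genes the median difference of HKR3 over control was 0.50 in log2, with 97 above 0. Of these 118 genes, 18, or 15.3%, were at least 2-fold higher and 0 were lower by that much. The 100 genes with neither domain had a median of 0.37, with 75 above 0, 12 at least 2-fold higher and ZNF358 lower. The 9 SCAN genes had a median of 0.61, with 7 above 0 and 0 past 2-fold. Of the other genes at 3 FPKM, 5.15% were at least 2-fold higher and 2.71% lower. A count of 0 among 9 genes is near these shares, so nothing is read from it. Behind ZNF92, the KRAB genes with the largest differences were ZNF555 and ZNF746. ZNF555 was at 7.39 FPKM in the HKR3 library, 2.08 FPKM in the siTERT-labelled library and 2.31 FPKM in the control.

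Among SCAN genes, ZNF213 was at 8.51 FPKM in the HKR3 library, 4.34 FPKM in the siTERT-labelled library and 3.79 FPKM in the control, just under 2-fold. ZNF394 was at 12.3, 7.94 and 6.96 FPKM in the same libraries. ZNF202, a repressor of genes of lipid metabolism, was at 6.05, 3.21 and 3.45 FPKM. The 112 genes with 10 or more fingers had a median difference of 0.55, the 97 with 3 to 9 fingers a median of 0.40, and the 18 with 2 or fewer a median of 0.19. Across the 227 genes, Spearman's rho between finger number and the difference from the control was 0.18 in the HKR3 library and 0.19 in the siTERT-labelled library. These correlations are descriptions over genes that share libraries, both with the same control, and genes are not independent replicates.

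**Figure D4:**
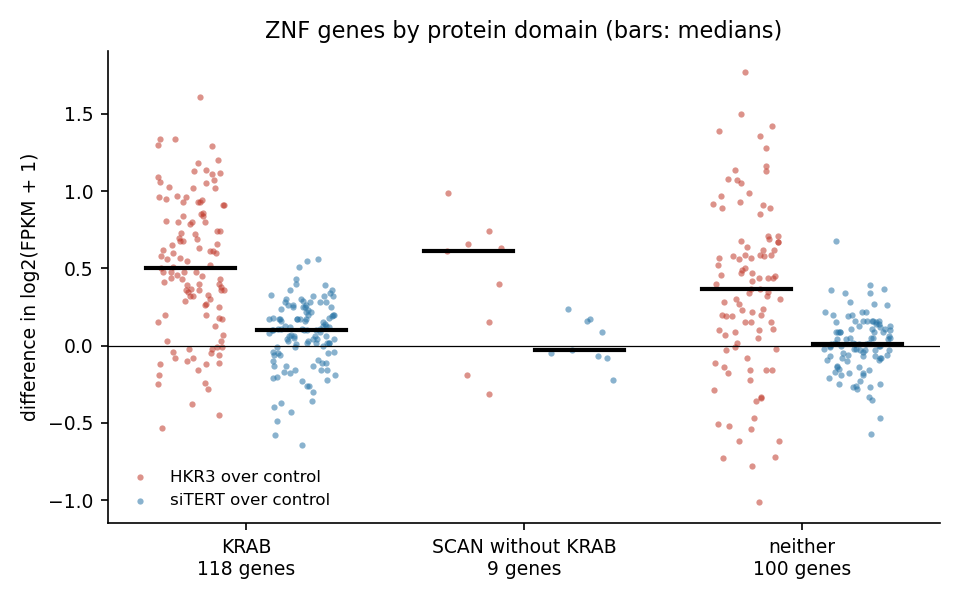
Difference in log2(FPKM + 1) from the control for each ZNF gene (points) and the median (bar), in the HKR3 library and in the siTERT-labelled library. The groups are genes called as KRAB, as SCAN without KRAB, or as neither by a core of fixed residues. In the HKR3 library the medians are 0.50, 0.61 and 0.37, and in the siTERT-labelled library 0.10, -0.03 and 0.01, in the order of the groups.

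GC content moved with these differences. Spearman's rho between the GC content of the transcript and the difference of HKR3 over control was -0.21 over the 227 ZNF genes and -0.28 over 9171 other genes. For siTERT over the same control it was -0.26 over the ZNF genes and -0.03 over the other genes. Where GC content was at most 44.6%, the lowest of 3 classes with equal numbers of other genes, 108 ZNF genes had a median of 0.57 and 3057 other genes a median of 0.13. In the highest class, above 54.5%, 62 ZNF genes had a median of 0.31 and 3057 other genes a median of -0.22. ZNF genes were thus the higher group in each class, and the gap stayed between 0.40 and 0.53. Transcripts longer than 3936 bases had medians of 0.56 in 86 ZNF genes and 0.09 in 3057 other genes. With a low GC content, a long transcript and a mean of 3 to 20 FPKM together, 55 ZNF genes had a median of 0.61, with 10.9% at least 2-fold higher. The 1122 other genes of that kind had a median of 0.23, with 8.20% at least 2-fold higher. The domain groups differed in GC content as well, with medians of 43.3% in KRAB genes and 52.2% in genes with neither domain. At low GC content the medians of these groups were 0.58 for 71 KRAB genes and 0.56 for 36 genes with neither. At middle and high GC content they were 0.45 for 47 KRAB genes and 0.19 for 64 genes with neither. The part of GC content in these differences was not tested.

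**Figure D5:**
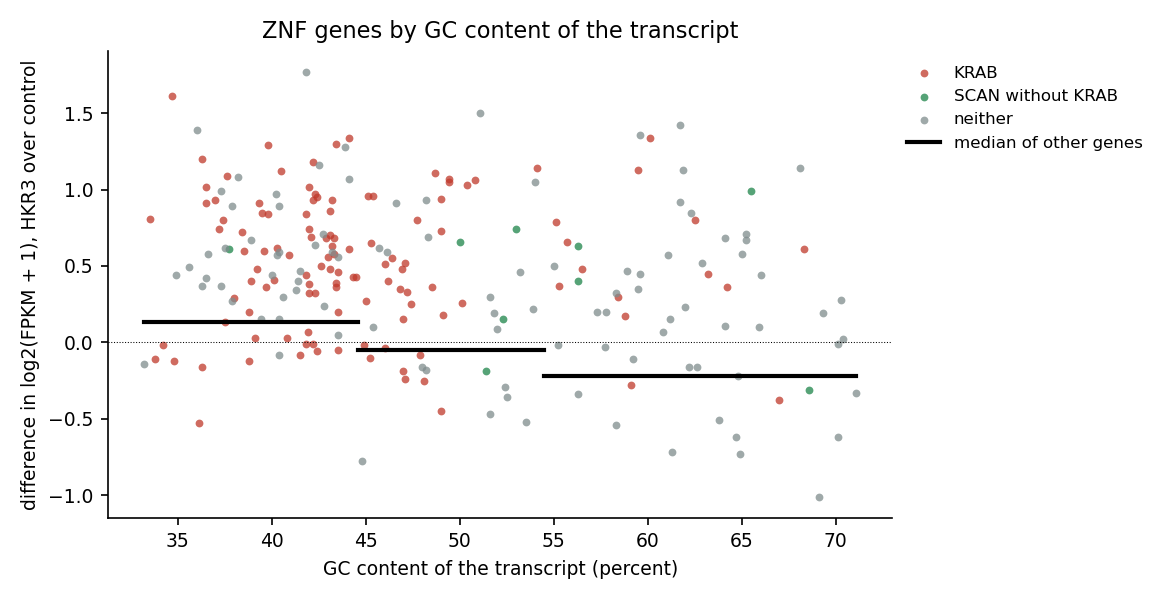
Difference in log2(FPKM + 1) between the HKR3 library and the control (vertical axis) against the GC content of the transcript in percent (horizontal axis) for 227 ZNF genes, coloured by protein domain, with black lines at the median of other genes in each of 3 classes of GC content. The lines lie at 0.13, -0.05 and -0.22, below the medians of the ZNF genes in the same classes, which are 0.57, 0.35 and 0.31.

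By place in the genome, 98 of the 227 genes lay on chromosome 19 and the rest on 20 other chromosomes. For these 98 the median difference of HKR3 over control was 0.43 in log2, against 0.47 for the 129 genes elsewhere. The 568 other genes on chromosome 19 had a median of -0.17. Neighbours within 500 kilobases, in the gene order of GENCODE release 29, formed 12 runs of at least 5 ZNF genes, with 103 genes in all. The run from ZNF101 to ZNF93 on chromosome 19, which holds ZNF14, ZNF506 and ZNF253 as well, had a median of 0.86. The chromosome 7 run from ZNF786 to ZNF746 had a median of 0.79. The longest run, 24 genes from ZNF264 to ZNF446, had a median of 0.46, with 19 above 0.

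At the other end, the run of 8 genes from ZNF628 to ZNF444 on chromosome 19, none called as KRAB, had a median of -0.10. The run from ZNF680 to ZNF92 on chromosome 7 had a median of -0.04, although ZNF92 itself was at 1.61. Both medians turned positive, to 0.03 and 0.09, after scaling to the same sum. Neighbours could also differ. In the run of ZNF430, ZNF714, ZNF431, ZNF708, ZNF738, ZNF493 and ZNF100, differences lay between -0.53 and 1.09 with a median of 0.74.

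In the start regions, TTAGGG was present in 15 of 195 ZNF genes, or 7.69%, and in 8.94% of all 27305 start regions of the same length. Of 23 genes at least 2-fold higher in the HKR3 library, 5 held it, or 21.7%, and of 39 genes below 0 in that library, 6 held it, or 15.4%. Of those 5 genes, ZNF319, ZNF436 and ZNF595 were under 3 FPKM in the control and entered through the HKR3 library, so nothing is read from their share. The AP-1 site TGANTCA was present in 6.15% of ZNF genes, 7.76% of all start regions and 3.83% of those of other genes at 3 FPKM. The ZNF143 site was present in 6 ZNF genes, or 3.08%, and in 70 of all start regions, or 0.256%. Among other genes at 3 FPKM, that share was 0.634%. The 6 were ZNF317, ZNF140, ZNF451, ZNF277, ZNF286A and ZNF180, with log2 differences between 0.30 and 1.03 in the HKR3 library. Of all 227 ZNF genes, 179 were above 0 there, and 77.1% of the sequence of ZNF286A is shared with another gene. A link between these differences and the level of ZNF143 was not tested. The median start region held 23 CG pairs in ZNF genes and 27 in other genes at 3 FPKM. A match describes these letters only and is not a measured binding site.

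The corepressor machinery that KRAB proteins use was examined beside the ZNF genes. Of 38 genes of the TRIM28, SETDB1, NuRD, HUSH and DNA methylation complexes, none passed 2-fold in the HKR3 library, with counts of 0 higher and 0 lower, where 5.15% and 2.71% of other genes at 3 FPKM passed that size. Counts of 0 among 38 genes are near these shares. Their median log2 difference was -0.06, which turned to 0.09 after scaling to the same sum. TRIM28 was at 325 FPKM in the HKR3 library, 305 FPKM in the siTERT-labelled library and 309 FPKM in the control. SETDB1 was at 8.39, 6.59 and 6.23 FPKM in the same libraries. MORC3, an ATPase of silenced chromatin, was at 8.93, 4.62 and 4.27 FPKM, and RESF1, a partner of SETDB1, at 20.6, 11.2 and 11.5 FPKM. ATF7IP, which stabilises SETDB1, was at 15.0, 8.99 and 9.66 FPKM. Among the lower genes, CBX5, the heterochromatin protein HP1 alpha, was at 9.41 FPKM in the HKR3 library, 14.5 FPKM in the siTERT-labelled library and 17.7 FPKM in the control. The DNA methyltransferase gene DNMT3B was at 4.87, 7.72 and 8.65 FPKM, and the deacetylase gene HDAC1 at 74.0, 105 and 110 FPKM. Beside TRIM28 and SETDB1, the members named were the 6 with the largest differences. Of the 38 genes, 16 were above 0 in the HKR3 library. The 6 thus show the extremes of the list, and no pattern by function is read from them.

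In the siTERT-labelled library, ZNF genes stayed near the control. The median log2 difference was 0.05 over the 227 genes, with quartiles of -0.08 and 0.17, and 225 of them lay within 1.5-fold. At least 2-fold higher were 0 and at least 2-fold lower were 0, where 0.282% and 0.2% of all genes averaging 1 FPKM or more passed that size. Of the other genes at 3 FPKM, 0.229% were that much higher and 0.0762% lower, and their median was -0.02. At 1.5-fold, 1 ZNF gene was higher and 1 lower, or 0.441% each, against 1.36% and 0.969% of the other genes. ZNF180 had the highest difference, at 7.32 FPKM in the siTERT-labelled library and 4.20 FPKM in the control. ZNF124 was at 15.6 and 10.3 FPKM, ZNF670 at 22.5 and 15.0 FPKM, and ZNF114 at 9.14 and 6.09 FPKM in the siTERT-labelled library and the control. ZNF253 was at 12.1 FPKM in the siTERT-labelled library and 8.72 FPKM in the control. ZNF124 and ZNF670 lie in 1 run of 5 genes on chromosome 1, which had a median of -0.03 with only these 2 above 0.

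The lowest in the siTERT-labelled library was ZNF688, at 2.67 FPKM there and 4.72 FPKM in the control, a log2 difference of -0.64. ZNF589 was at 4.15 and 6.68 FPKM, ZNF784 at 2.28 and 3.87 FPKM, ZNF559 at 2.37 and 3.75 FPKM, and ZNF771 at 5.14 and 7.51 FPKM in the siTERT-labelled library and the control. The 118 KRAB genes had a median of 0.10, with 82 above 0, and the 100 genes with neither domain a median of 0.01, with 55 above 0.

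The HKR3 library and the siTERT-labelled library were also set against each other. The median log2 difference of HKR3 over siTERT was 0.39, with 180 of 227 above 0, against a median of -0.03 over the other genes at 3 FPKM. At least 2-fold higher in the HKR3 library were 24 ZNF genes, or 10.6%, and 0 were lower, where the shares were 4.11% and 1.38% of all genes and 3.77% and 1.46% of the other genes at 3 FPKM. Of these 24 genes, 21 were also at least 2-fold higher in the HKR3 library than in the control, a count that shares the HKR3 library. The genes were chosen by a mean that includes the HKR3 library, and 18 of the 227 were under 3 FPKM in both other libraries. Shares for genes chosen by the control alone were not calculated for this comparison, so nothing is read from the 10.6%. ZNF281 had the largest difference, at 1.57, followed by ZNF319 at 1.47 and ZNF555 at 1.45. ZNF319 and ZNF555 were under 3 FPKM in both other libraries and passed the minimum through the HKR3 library. ZNF114 ran the other way, at 4.95 FPKM with HKR3 and 9.14 FPKM in the siTERT-labelled library, a difference of -0.77, as did ZNF358 at -0.83.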

How the data were processed

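The authors deposited 1 table of FPKM per gene for 3 libraries of Hep3B cells. STAR 2.5.0, Cufflinks and Cuffdiff 2.2.1 with the hg19 build were used, per the submitters' processing notes. The sources used here do not give their settings or whether counting used strand. Messenger RNA libraries came from a stranded TruSeq kit, per the labels' protocols.

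A table of gene names gave a symbol to 19310 of 19869 identifiers. Differences were calculated on log2(FPKM + 1), a pseudocount of 1 FPKM that understates the change of weakly expressed genes, with Python 3.11.15, pandas 2.3.3 and numpy 2.4.6. With 1 library a group there is no p-value, SD or SE. The calculation was tested on simulated data.

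Coding sequences came from GENCODE release 29, on another build, and were translated with Biopython 1.88. A finger is C, 2 to 4 residues, C, 12 residues, H, 3 to 5 residues, H. KRAB and SCAN were called from a core of 8 or 12 fixed residues with at most 2 or 3 changed. GC content and length are those of the transcript with the longest coding sequence. The fragment estimate used low genes with 1 transcript of at least 1000 bases, and 54 of 161, 72 of 157 and 64 of 137 of these were within 25% of 1 fragment in the HKR3 library, the siTERT-labelled library and the control.

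The genes, lists and comparisons were chosen with earlier results of these data known. Named were the 12 highest and 12 lowest in the HKR3 library, 5 and 5 in the siTERT-labelled library, the 8 most abundant, 3 of each domain group, and in the corepressor list TRIM28, SETDB1 and the 6 genes with the largest difference. ZNF91, ZNF93, ZNF134, ZNF140, ZNF143, ZNF148, ZNF217, ZNF274, ZNF277, ZNF286A, ZNF317, ZNF410, ZNF451, ZNF473, ZNF598, ZNF718, CHD4 and the genes naming runs were added after their values were seen.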

Additional observations from a re-analysis of the deposited data

How the results depend on the processing

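No paired analysis was possible because each group held 1 library, and for the same reason no library could be left out. For the HKR3 library over the control, the 30 ZNF genes at least 2-fold higher became 46 with a pseudocount of 0.1 FPKM, 2 with 5 FPKM, 48 after scaling to the same sum and 17 among the 129 that averaged 6 FPKM or more. The 1 lower gene became 0 with a pseudocount of 5 FPKM and 0 after scaling to the same sum. The share of other genes was not calculated at pseudocounts of 0.1 and 5 FPKM or at a mean of 6 FPKM. The counts at those settings are therefore not compared with other genes. At 1.5-fold the counts were 90 higher and 6 lower, and in the siTERT-labelled library 1 and 1. The median of 0.45 became 0.31 with a pseudocount of 5 FPKM and 0.60 after scaling to the same sum. For KRAB genes the median of 0.50 became 0.32 and 0.63 in these, and 0.67 with a mean of at least 6 FPKM. For genes with neither domain 0.37 became 0.51 after scaling to the same sum. A larger pseudocount shrinks every difference by construction. Scaling to the same median, a mean of at least 1 FPKM and leaving out the 12 genes with shared sequence moved these medians by less than 0.1 and the counts by at most 1.5 times. Choosing the genes by the control or the siTERT-labelled library alone, an alternative chosen after seeing the data, gave 21 genes at least 2-fold higher and a median of 0.40 each. All 31 genes past 2-fold kept their sign under every pseudocount and scaling tried, but this was fixed in advance. No pseudocount can change a sign, and the scalings moved a log2 ratio of HKR3 over control by 0.16 or -0.08. Fragment numbers are estimates, so no counting interval is given.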

Other observations

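Weakly expressed ZNF genes, which were outside the minimum of 3 FPKM, were also mostly above the control in the HKR3 library. The 128 ZNF symbols with a mean of 1 to 3 FPKM had a median log2 difference of 0.38, where 1437 other genes of that level had a median of 0.04. At least 2-fold higher were 10 of them, or 7.81%, close to the 6.47% of the other genes, and 0 were lower. In the siTERT-labelled library their median was 0.03.

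Zinc finger genes with other symbols had similar values in the HKR3 library. The 17 genes with a symbol of ZSCAN, ZKSCAN or ZFP that averaged 3 FPKM or more had a median of 0.61 in log2, with 16 above 0 and 3, or 17.6%, at least 2-fold higher. Over the 9182 other genes of that level the median was -0.05, with 5.15% at least 2-fold higher. ZFP36, which binds AU-rich messenger RNA through zinc fingers of another type, had the largest, at 51.4 FPKM in the HKR3 library, 12.7 FPKM in the siTERT-labelled library and 10.0 FPKM in the control. ZFP82 was at 5.12, 2.5 and 1.87 FPKM in the same libraries, and ZKSCAN8 at 5.73, 2.62 and 2.23 FPKM. ZSCAN30 was at 3.30, 3.96 and 3.31 FPKM. The 23 genes of the ZBTB family other than ZBTB48 had a median of 0.65, with 20 above 0 and 4, or 17.4%, at least 2-fold higher.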
